A study of Mus musculus with 5 samples.

Results

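The immunoproteasome and the peptide-loading machinery were followed through 9 genes: Psmb8, Psmb9 and Psmb10, which encode the inducible catalytic subunits of the proteasome, Psme1 and Psme2, which encode the PA28 activator, Tap1 and Tap2, which encode the peptide transporter, Tapbp, which encodes tapasin, and Nlrc5, which encodes a transactivator of class I genes. They were picked by name from the deposited gene table, in which 9 of 32285 genes carry these symbols. Their UMIs (unique molecular identifiers, 1 per captured RNA molecule) were counted by 10x Genomics 3′ single-cell sequencing in the spleen of C57/BL6 mice 48 hours after an intravenous infusion. The 5 libraries, 1 for each group, came from mice given saline, live splenic cells from allogeneic Balbc donors, live splenic cells from isogeneic B6 donors, apoptotic splenic cells from the allogeneic donors, or apoptotic splenic cells from the isogeneic donors. All 5 groups shared the digestion of the spleen with collagenase D and DNAse I. They also shared a magnetic enrichment of CD45+ cells and, apart from it, of dendritic cells, which were then mixed in equal parts, so shares of cell types follow the mix and are not reported. The number of mice behind each library was not stated, and infused donor cells were not told apart from host cells, so their part in any value below was not tested.

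Most cells cut their own proteins with the proteasome, and a share of the peptides is pumped by the TAP transporter into the endoplasmic reticulum, where tapasin helps load them onto class I MHC molecules that are shown to CD8 T cells. Interferons induce the 3 immunosubunits, each of which takes the place of a constitutive subunit in newly built proteasomes (Psmb8 of Psmb5, Psmb9 of Psmb6, Psmb10 of Psmb7). Conventional dendritic cells, above all the cDC1 type, use the same machinery to show captured antigen to CD8 T cells, a step in the response to transplanted tissue.

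Several of the 9 genes lie next to each other, inside the mouse MHC on chromosome 17, in the mm10 build. Tapbp spans chr17:33915899-33929292 on the plus strand, Psmb9 chr17:34181987-34187764 on the minus strand, Tap1 chr17:34187553-34197225 on the plus strand, Psmb8 chr17:34197721-34201454 on the plus strand and Tap2 chr17:34203527-34216321 on the plus strand. The genes outside it are Nlrc5 at chr8:94434356-94527272 on the plus strand, Psmb10 at chr8:105935735-105938444 on the minus strand, Psme1 at chr14:55578123-55581529 on the plus strand and Psme2 at chr14:55587441-55591113 on the minus strand. Psmb9 and Tap1 are read away from each other from RefSeq starts with 225 bases between them, so 1 short stretch precedes both RefSeq starts. The spans above come from GENCODE, in which Psmb9 reaches to 34187764 and overlaps Tap1. By that annotation the stretch lies inside the Psmb9 span. That stretch is shown first because it precedes the RefSeq starts of 2 genes whose levels are followed below. The other 2 windows show the only matches to 2 interferon motifs in the promoter windows of the 9 genes. All are on the plus strand of GRCm38.p6, credited to RefSeq, and capitals mark a motif match.
Psmb9-Tap1 interval, chr17:34187331-34187555: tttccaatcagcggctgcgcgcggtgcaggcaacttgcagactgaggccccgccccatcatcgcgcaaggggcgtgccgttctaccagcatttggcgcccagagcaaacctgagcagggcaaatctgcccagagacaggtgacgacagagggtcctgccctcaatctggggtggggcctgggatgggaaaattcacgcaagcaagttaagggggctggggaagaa
Psme1, chr14:55578493-55578522: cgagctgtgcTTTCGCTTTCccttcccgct
Psmb8, chr17:34198088-34198117: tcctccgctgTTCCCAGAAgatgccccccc
Promoter windows (250 bases before to 50 after a RefSeq start) were at hand for 7 of the 9 genes, with none for Tap2 and Nlrc5. The interferon-stimulated response element core was searched on both strands as GAAA, any 2 bases, then GAAA. Its match at Psme1 begins 9 bases after the RefSeq start. That motif is in 3.44% of 32851 mouse promoter windows. The gamma-activated site was searched as TTCNNNGAA, which reads alike on both strands, and its match at Psmb8 begins 97 bases before the RefSeq start. It is in 8.30% of the same windows. The Psmb9-Tap1 interval holds neither, has 12 CpG dinucleotides and is 61.3% G and C. These matches describe letters and no binding was measured.

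Barcodes counted as cells if they held 1000 or more UMIs from 500 or more genes, with no more than 10% of the UMIs mitochondrial. After cells marked as doublets by Scrublet were also left out, 16132 cells remained. The libraries held between 1185 cells (live allogeneic) and 6263 cells (apoptotic isogeneic). Total counts over all listed barcodes, cells or not, were 12742889 to 32641733 UMIs. The apoptotic allogeneic file lists only 2491 barcodes, so its total is not comparable with the others. At most 8 cell barcodes were shared between any 2 libraries. Cells fell into 31 clusters, which were given "like" names from marker lists. The cluster led by Cd209a had more classical monocyte than cDC2 markers among its leading genes and was left unnamed. Of the 9 genes, 0 were among the 2000 variable genes used to cluster the cells. Median depth per cell differed between the libraries. In cDC2-like cells (conventional dendritic cells of the second type) it was 5026 UMIs with saline, 7966 with live allogeneic cells, 6488 with live isogeneic cells, 6381 with apoptotic allogeneic cells and 3749 with apoptotic isogeneic cells. Levels are therefore given as CPM, the UMIs of a gene per 1000000 UMIs of the summed cells of a class, with 95% Poisson intervals that cover counting error only. With 1 library per group there was no replicate check and no test between groups, and a gene was called higher or lower only by size, at a ratio of at least 1.5 in either direction.

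Summed over the 9 genes, the live allogeneic library had the highest level in 9 of 9 classes that could be measured in every library. Its counting interval lay above those of the other 4 libraries in 8 of them. The exception was the red pulp macrophage-like class, where the live allogeneic level was 2117 (1874 to 2382) and the live isogeneic level 1718 (1521 to 1933). In cDC2-like cells the sum was 2050.3 CPM with saline, 3169.8 with live allogeneic cells, 1922 with live isogeneic cells, 2072 with apoptotic allogeneic cells and 1996 with apoptotic isogeneic cells. The live allogeneic library stood alone and the other 4 lay within 1922 to 2072. In B cell-like cells the same order of libraries gave 1525, 2574, 1423, 1459 and 1423 CPM. In T cell-like cells it gave 1879, 2505, 1676, 1742 and 1648 CPM. In both lymphocyte classes only the live allogeneic library stood above the saline library.

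**Figure D1:**
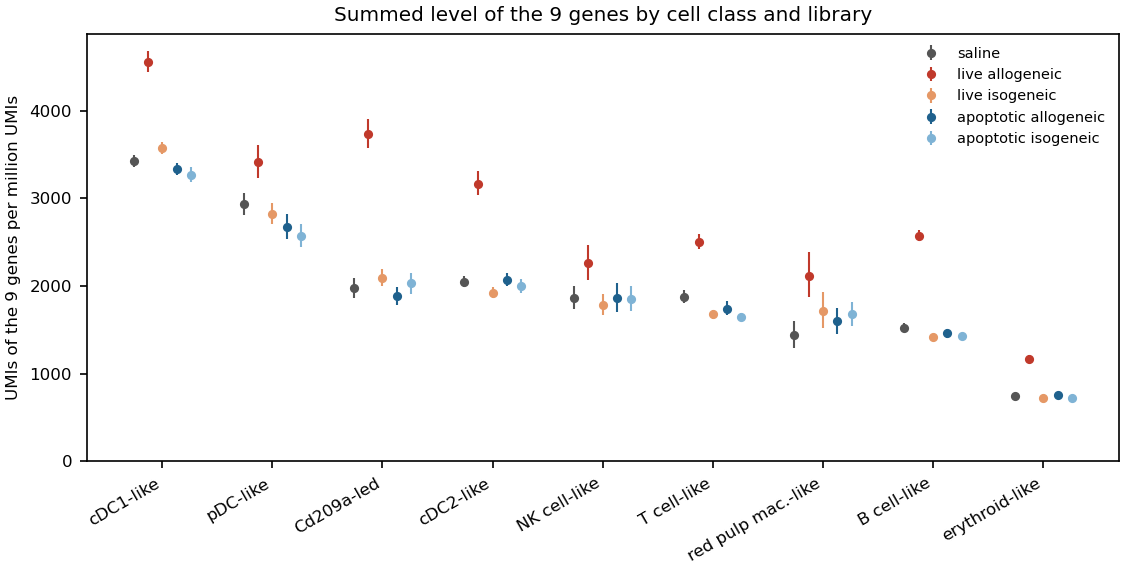
Summed level of the 9 genes (CPM) in the 9 classes measured in every library. Points are single libraries and bars 95% Poisson intervals for counting error. The live allogeneic point is the highest in every class shown, from 1166 in erythroid-like cells to 4559 in cDC1-like cells.

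The catalytic subunits were all highest in the live allogeneic library in cDC2-like cells. Psmb8, the chymotrypsin-like immunosubunit LMP7, was at 454 CPM with saline, 735 with live allogeneic cells, 431 with live isogeneic cells, 466 with apoptotic allogeneic cells and 441 with apoptotic isogeneic cells. The intervals of the 4 lower libraries overlapped, and the live allogeneic level was 1.71 times (1.52 to 1.91) the live isogeneic one. Psmb9, the immunosubunit LMP2, was at 195, 494, 256, 193 and 207 CPM in the same order. Both live libraries were above the other 3, although the live isogeneic and apoptotic isogeneic intervals touched. The live allogeneic level was 1.93 times (1.67 to 2.23) the live isogeneic and 2.54 times (2.17 to 2.96) the saline one. Psmb10, the immunosubunit MECL-1, was at 144, 230.5, 112, 130.3 and 118 CPM. Here the live isogeneic library was the lowest of the 5, and the ratio of live allogeneic to live isogeneic was 2.06 (1.66 to 2.55), against 1.60 to saline.

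Across the 9 classes Psmb9 was highest in the live allogeneic library in 9, Psmb8 in 8 and Psmb10 in 7. The live allogeneic counting interval lay above those of all other libraries in 6 classes for Psmb9, 6 for Psmb8 and 3 for Psmb10. In B cell-like cells Psmb9 was at 110.8 CPM with saline, 299.5 with live allogeneic cells, 137 with live isogeneic cells, 100.1 with apoptotic allogeneic cells and 103 with apoptotic isogeneic cells. The live allogeneic level was 2.18 times the live isogeneic level, with no overlap of intervals. In cDC1-like cells, the class known for cross-presentation, Psmb9 was at 375, 755.5, 599, 346 and 367.5 CPM in the same order. Both live libraries were high there, and their ratio was 1.26 (1.16 to 1.37). Psmb8 in cDC1-like cells was at 874, 1189, 860.4, 839 and 823 CPM, so that only the live allogeneic library stood apart. The clusters that make up this class were not shared out alike in the libraries, as given below with its summed level.

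The 2 PA28 subunits form a cap that opens the proteasome core. Psme2 in cDC2-like cells was at 240.7 CPM with saline, 473.5 with live allogeneic cells, 274 with live isogeneic cells, 256 with apoptotic allogeneic cells and 273 with apoptotic isogeneic cells. It was high in 1 library only, at 1.73 times (1.49 to 2.00) the live isogeneic level. Psme1 was at 653, 789.7, 535, 704 and 657 CPM in the same order. Its live allogeneic and apoptotic allogeneic intervals overlapped, and its ratio of live allogeneic to live isogeneic was 1.48 (1.32 to 1.65), just under the size that was called. In B cell-like cells Psme1 was at 423, 768, 359.8, 439 and 378 CPM, and the live allogeneic library was far from the other 4, at 2.13 times the live isogeneic level. Psme2b is a near-identical copy of Psme2, so reads may be split between them and Psme2 is uncertain to that extent. Psme2b in cDC2-like cells was at 59.2, 46.7, 44.4, 43.6 and 22.3 CPM, with no excess in the live allogeneic library.

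The 2 chains of the TAP transporter followed different libraries. Tap1 in cDC2-like cells was at 142 CPM with saline, 153 with live allogeneic cells, 89.8 with live isogeneic cells, 113 with apoptotic allogeneic cells and 110.5 with apoptotic isogeneic cells. The live allogeneic and saline intervals overlapped: the ratio was 1.70 (1.31 to 2.19) to the live isogeneic library and 1.08 (0.84 to 1.36) to saline. Tap2 was at 25.9, 46.7, 55.7, 24.2 and 19.95 CPM, so that both live libraries were higher than the 3 others. The live allogeneic sum held only 30 UMIs of Tap2, and its interval overlapped those of saline and of apoptotic allogeneic cells. The Tap2 ratio of live allogeneic to live isogeneic was 0.84 (0.54 to 1.27), and that to saline was 1.81 (1.10 to 2.93). Tap1 was highest in the live allogeneic library in 9 of 9 classes, but its counting interval there lay above those of all other libraries in only 2. In B cell-like cells, 1 of these 2, Tap1 was at 224 CPM against 106 to 122 in the other 4 libraries. Tap2 was highest in the live isogeneic library in 8 of 9. Barcodes too small to be cells also had the most Tap2 in that library, as given below with the free RNA.

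Tapbp, the tapasin that holds the empty class I molecule at the transporter, differed less. In cDC2-like cells it was at 179.8 CPM with saline, 215 with live allogeneic cells, 152 with live isogeneic cells, 171 with apoptotic allogeneic cells and 147 with apoptotic isogeneic cells. The live allogeneic interval overlapped that of saline, at a ratio of 1.20 (0.97 to 1.47), and the ratio to live isogeneic was 1.41 (1.14 to 1.74). Nlrc5, which drives transcription of class I genes, was rare, with 21 to 32 UMIs in each cDC2-like sum. It was at 16.1, 32.7, 17.3, 15.1 and 21.5 CPM in the same order, and the live allogeneic interval overlapped those of the other libraries, with a ratio of 1.89 (1.04 to 3.38) to live isogeneic. In B cell-like cells, where Nlrc5 was counted more often, it was at 23.9, 58.1, 23.5, 21.2 and 18.9 CPM. Only the live allogeneic library was high there, at 2.48 times the live isogeneic level.

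**Figure D2:**
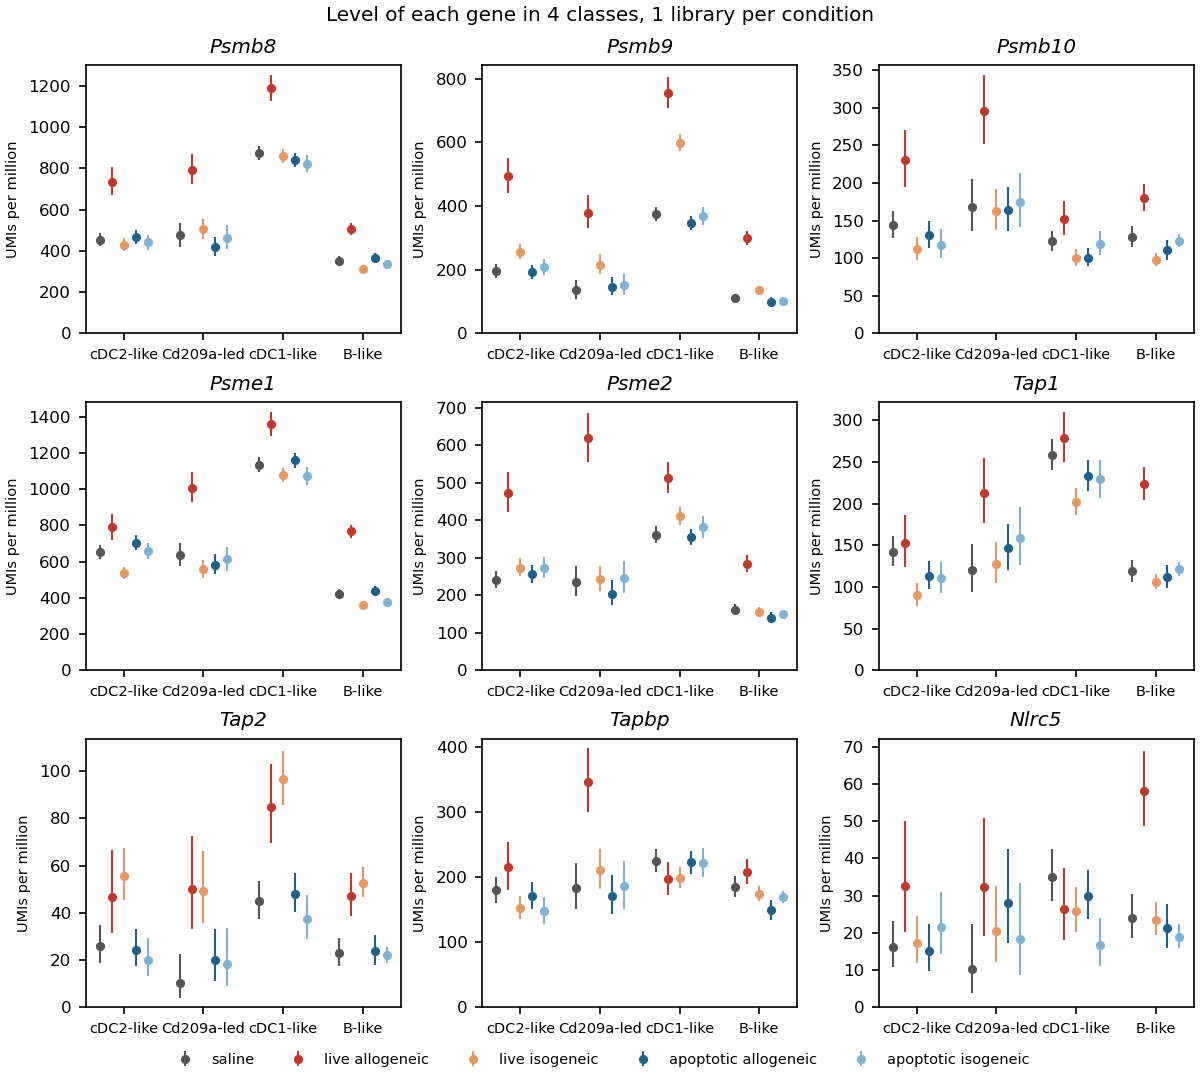
Level of each of the 9 genes (CPM) in cDC2-like, Cd209a-led, cDC1-like and B cell-like cells. Points are single libraries and bars 95% Poisson intervals. In cDC2-like cells the live allogeneic intervals of Psmb8, Psmb9, Psmb10 and Psme2 lie above those of the other libraries. Tap2 is higher in both live libraries (46.7 and 55.7 in cDC2-like cells against 19.95 to 25.9), but its live allogeneic interval overlaps that of saline.

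In cDC2-like cells, 6 of the 9 genes were at least 1.5-fold higher in the live allogeneic than in the live isogeneic library and 0 were as much lower. Of all 8121 genes with at least 20 UMIs in the 2 sums, 10.1% were higher and 17.3% lower by that size, and of those with at least 200 UMIs 6.33% were higher. The median log2 ratio was 0.70 over the 9 genes and -0.06 over all of them. Against saline the count was 6 of 9, beside 9.96% of all genes, but it was 3 of 9, beside 14.8% of all genes, when each cell was thinned to 1000 UMIs. In the apoptotic pair, allogeneic against isogeneic, it was 0 of 9, beside 7.21% of all genes, and the summed level had a ratio of 1.04 (0.99 to 1.09). The summed ratio was 1.65 (1.56 to 1.74) in the live pair. Whether the pairs differ could not be tested with 1 library each.

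**Figure D3:**
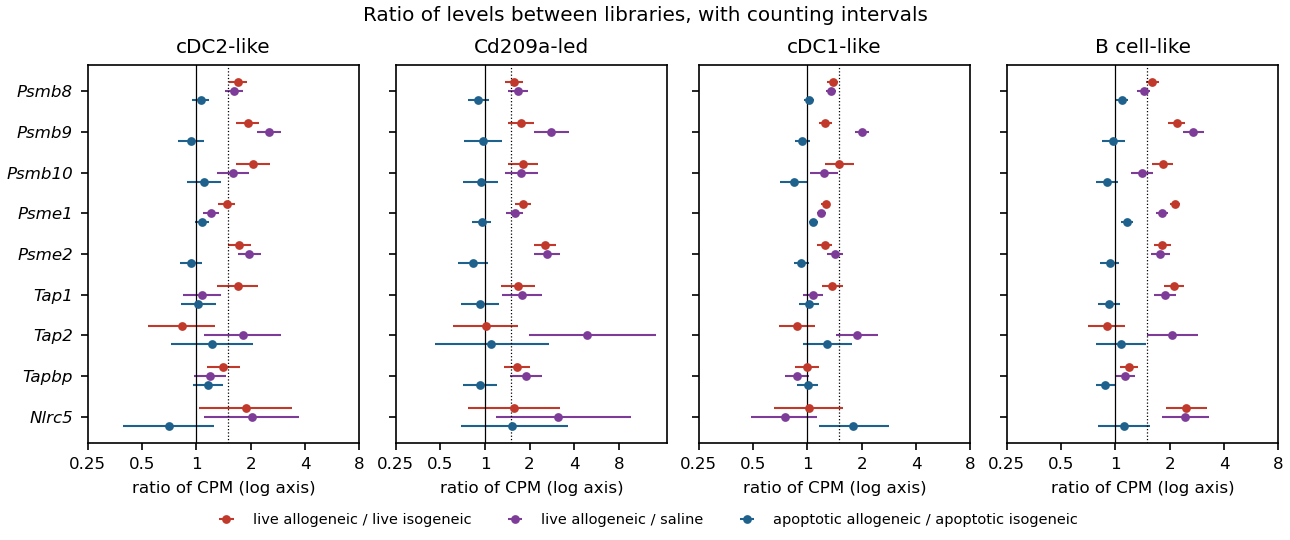
Ratio of CPM between libraries for each of the 9 genes in 4 classes, on a log axis, with 95% exact intervals for counting error. The solid line marks equal levels and the dotted line 1.5. The apoptotic ratios in cDC2-like cells all lie between 0.70 and 1.21.

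The cluster led by Cd209a, with 43 live allogeneic cells and 90 to 110 in the other libraries, had larger differences. Its summed level was 1976 CPM with saline, 3738 with live allogeneic cells, 2095 with live isogeneic cells, 1884 with apoptotic allogeneic cells and 2031 with apoptotic isogeneic cells. In the live pair 8 of 9 genes were higher, beside 18.1% of all genes, and Tap2 was the exception. Nlrc5, 1 of the 8, rested on 18 UMIs in each library, at a ratio of 1.57 with an interval of 0.77 to 3.19. Psme2 was at 619 CPM against 205 to 246 in the other 4 libraries, and Tapbp at 347 against 171 to 211. In the apoptotic pair 1 of 9 was higher, beside 10.9% of all genes. That gene was Nlrc5, at a ratio of 1.53 with an interval of 0.69 to 3.64. Marker lists moved with this cluster: summed classical monocyte markers were at 10385 CPM after live allogeneic and 6317 after live isogeneic cells, and pDC markers at 2239 and 787. Both marker lists hold Ly6c2, and the pDC list also holds Bst2, a member of the type I interferon response list used below. The part of these genes in the sums, and of the marker shifts in the result, was not tested. In cDC2-like cells the cDC2 markers were at 2315 and 2238 CPM, classical monocyte markers at 3366 and 2562 and B cell markers at 422 and 681.

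B cell-like cells gave 7 of 9 genes higher in the live pair, beside 5.55% of all genes (3.77% of those with at least 200 UMIs), and the summed ratio was 1.81 (1.75 to 1.87). The 2 genes not called were Tap2 and Tapbp, the latter at a ratio of 1.19. Different clusters hold most of this class in the libraries: a cluster led by Ifit3, an interferon-induced gene, took up 222 of 487 live allogeneic cells (45.6%). Without it, 5 of 9 genes were higher, beside 5.32% of all genes in the same cells, and the summed ratio was 1.56. Within it the summed level was 3047 CPM in the live allogeneic library against 2021 to 2033 in the 3 others with enough cells.

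Among T cell-like cells 5 of 9 genes were higher in the live pair, beside 17.4% of all genes, led by Psmb10 at 1.85 (1.56 to 2.20) and Psmb8 at 1.77 (1.61 to 1.94). Tap2 and Nlrc5 ran the other way, at 0.70 (0.53 to 0.91) and 0.73 (0.53 to 1.00). The clusters behind this class differed between the libraries: cluster 30 held 16 of 149 live allogeneic cells (10.7%), 9 of 540 live isogeneic cells (1.67%) and 1 of 325 saline cells. The 2 largest T cell-like clusters, taken on their own, each had a higher summed level in the live allogeneic than in the live isogeneic library, with summed levels of 1980 and 1346 CPM in one and 2750 and 1778 CPM in the other. In erythroid-like cells 6 of 9 genes were higher, beside 4.07% of all genes, with Psmb9 at 2.27 (1.90 to 2.70) and Tap1 at 2.19 (1.80 to 2.67). The median depth of erythroid-like cells was 3605 UMIs in the live isogeneic library and 25908 to 43640 in the other 4, and the part of this gap was not tested. In cDC1-like cells only Psmb10 was called, at 1.51 (1.25 to 1.82), so 1 of 9, beside 10.4% of all genes. The summed cDC1-like level was 1.28 times (1.24 to 1.32) the live isogeneic one. The clusters behind this class also differed between the libraries: cluster 12 held 44.3% of live allogeneic, 50% of live isogeneic and 71.4% of saline cells, and cluster 20 held 23.9%, 7.43% and 10.8%. Cluster 17 held 31.8%, 42.6% and 17.8% in the same order. Within cluster 12 the summed level was 4355 CPM with live allogeneic, 3496 with live isogeneic and 3379 with saline cells. The pDC-like class (plasmacytoid dendritic cells) had 0 of 9 higher, beside 10.2% of all genes, and a summed ratio of 1.21 (1.13 to 1.29). NK cell-like cells had 2 of 9 higher, Psme2 at 1.73 (1.25 to 2.40) and Nlrc5 at 1.53 (0.71 to 3.18), beside 14% of all genes, while Tap2 was at 0.65 (0.31 to 1.27). Red pulp macrophage-like cells had 1 of 7 measured genes higher, Psmb9 at 2.32 (1.25 to 4.45), beside 21.1% of all genes. Across the 9 classes, 36 of 79 values of the 9 genes were higher in the live pair, beside 11.1% of the values of all genes. In the apoptotic pair 4 of 80 were, beside 7.63%.

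The live isogeneic library was also set against saline. Tap2 was 2.16 times (1.51 to 3.13) the saline level in cDC2-like cells, 2.15 times (1.74 to 2.67) in cDC1-like cells and 2.31 times (1.75 to 3.09) in B cell-like cells. In mature DC-like cells Tap2 was at 153.5 CPM, against 38.1 to 58.0 in the 3 other libraries with enough cells. Psmb9 was also above saline, at 1.60 times (1.48 to 1.73) in cDC1-like cells and 1.31 times (1.14 to 1.52) in cDC2-like cells. Tap1 went the other way in cDC2-like cells, at 0.63 times (0.52 to 0.77) saline. The gene Gm42418 stood apart in the same library, at 61051 CPM in cDC2-like cells against 13299 to 18168 in the other 4, and its part in these values was not tested. B2m, the light chain of class I molecules, was likewise high in both live libraries, with 1913 CPM after live isogeneic and 1953 after live allogeneic cells against 1273 to 1341 elsewhere in cDC2-like cells.

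Set against its constitutive counterpart, Psmb9 kept this pattern. In cDC2-like cells there were 1.395 UMIs of Psmb9 per UMI of Psmb6 with saline, 2.60 (2.10 to 3.23) with live allogeneic cells, 2.23 (1.89 to 2.64) with live isogeneic cells, 1.401 with apoptotic allogeneic cells and 1.45 with apoptotic isogeneic cells. Both live libraries lay above the 3 others without overlap. In B cell-like cells the ratio was 0.86, 2.34, 1.46, 0.96 and 0.87 in the same order. Psmb8 per Psmb5 lay between 3.11 and 3.84 in cDC2-like cells with overlapping intervals, and Psmb5 itself was 1.55 times its live isogeneic level in the live allogeneic library. In T cell-like cells that ratio was lowest in the live allogeneic library, at 3.15 (2.74 to 3.62) against 4.78 (3.88 to 5.93) with saline. Psmb10 per Psmb7 in cDC2-like cells was lowest in the live isogeneic library, at 1.41 (1.13 to 1.75), against 2.23 to 2.85 in the other 4.

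**Figure D4:**
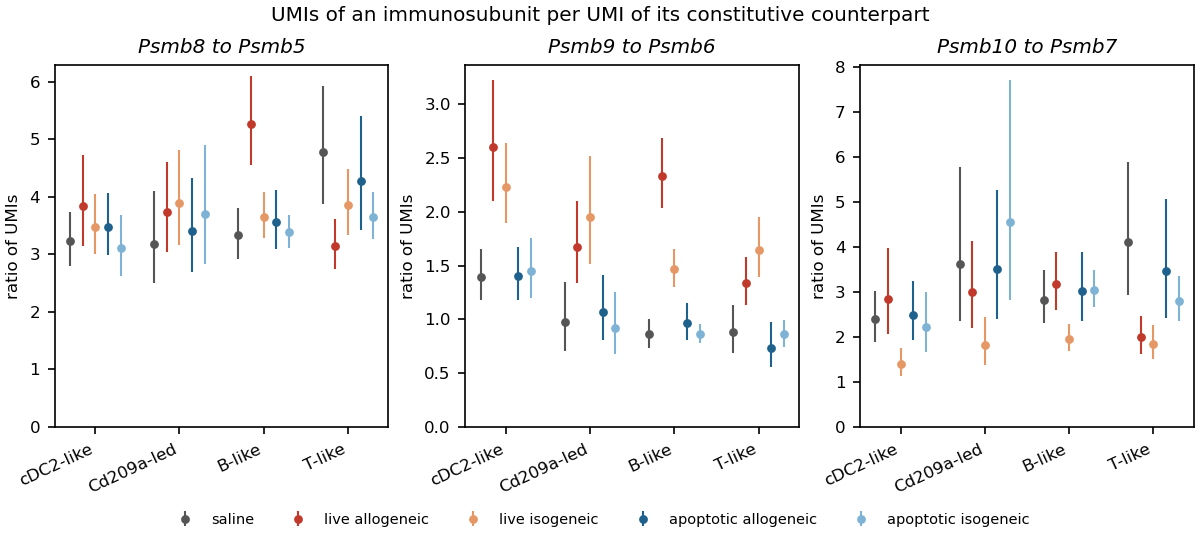
UMIs of each immunosubunit per UMI of its constitutive counterpart in 4 classes. Points are single libraries and bars 95% exact intervals for counting error. Psmb9 per Psmb6 is high in both live libraries (2.60 and 2.23 in cDC2-like cells), while Psmb8 per Psmb5 overlaps between libraries in cDC2-like cells.

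Related genes were counted from lists in the same live pair of cDC2-like cells, beside the 10.1% of all genes that were higher. Of the constitutive catalytic subunits 2 of 3 were higher (Psmb6 at 1.66 and Psmb5 at 1.55), and of the other core subunits 6 of 11, led by Psma5 at 2.41 (1.88 to 3.08). The median log2 ratio of those 11 was 0.58. In T cell-like cells the core subunits were higher in 10 of 11, beside 17.4% of all genes, and in B cell-like cells in 4 of 11, beside 5.55%. Class I molecules had 2 of 9 higher (H2-Q7 at 1.83 and H2-T22 at 1.94) and 1 lower, H2-M3 at 0.66. Loading partners had 1 of 6 higher, the tapasin relative Tapbpl at 1.74 (1.03 to 2.90), and 1 lower, the chaperone Canx at 0.57 (0.43 to 0.74). Peptide trimming enzymes had 0 of 6 higher. Type I interferon response genes had 13 of 14 higher, with Isg15 at 4.47 (3.63 to 5.51), and interferon-gamma response genes 7 of 11. Irf1, a transcription factor induced by interferon, did not stand apart in cDC2-like cells (45.3 to 68.2 CPM over the 5 libraries), but was at 129 CPM in live allogeneic B cell-like cells against 47.7 to 63.6 elsewhere.

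Within saline, the classes differed in the summed level of the 9 genes. Mature DC-like cells had 3985 CPM, cDC1-like cells 3432 and pDC-like cells 2931, followed by cDC2-like cells with 2050.3 and the Cd209a-led cluster with 1976. These last 2 did not differ beyond counting error, and erythroid-like cells were lowest of all, at 739. The genes did not share 1 order. Psmb8 was highest in cDC1-like cells (874 CPM), above mature DC-like (751) and pDC-like cells (682), which overlapped. Psme2 was highest in mature DC-like cells, at 809.5 CPM against 361 in cDC1-like cells, and so was Nlrc5, at 146 CPM against 62.6 in T cell-like cells. Psmb10 was highest in pDC-like cells (267 CPM), overlapping NK cell-like cells (233), while cDC1-like cells had 122. Tapbp was highest in pDC-like cells (437 CPM), overlapping mature DC-like cells (425). For Tap2 every neighbour in the order overlapped.

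Cell by cell, the higher live allogeneic level was spread over many cells in some classes, while in others the libraries overlapped. Each cell was thinned to 1000 UMIs, which no cell fell short of, and the share of cells at or above the upper quartile of saline cells was taken. In cDC2-like cells (3 UMIs or more of the 9 genes) it was 33.4% (28.4% to 38.7%, exact Clopper-Pearson) with saline and 40 of 80 cells (38.6% to 61.4%) with live allogeneic cells. It was 29.5% with live isogeneic cells, 39.4% (33.4% to 45.6%) with apoptotic allogeneic cells and 28.4% with apoptotic isogeneic cells. The live allogeneic interval thus overlapped those of saline and of apoptotic allogeneic cells. These intervals cover the sampling of cells within 1 library only, not differences between libraries, so they do not compare the infusions. Without thinning, 90.0% to 97.5% of cells reached 3 UMIs in the 5 libraries. In the Cd209a-led cluster the thinned share was 69.8% in the live allogeneic library against 26.3% to 40.6%, and in B cell-like cells (2 UMIs or more) 69.4% against 39.8% to 43.4%. The cDC1-like share (4 UMIs or more) was 69.3% (58.6% to 78.7%) against 41.2% to 47.2%. For T cell-like cells (3 UMIs or more) the share was 47.0% (38.8% to 55.3%) against 20% to 28%. The red pulp macrophage-like share (2 UMIs or more) was 69.4% (51.9% to 83.7%) against 46.0% to 53.2%. The erythroid-like share (1 UMI or more) was 59.2% (44.2% to 73.0%) against 42.5% to 49.4%. In pDC-like cells (4 UMIs or more) the share was 38.5% (23.4% to 55.4%) against 26.0% to 31.5%. In NK cell-like cells (2 UMIs or more) it was 61.8% (43.6% to 77.8%) against 44.4% to 57.9%. There 23.5% of live allogeneic cells had 0 UMIs of the 9 genes, against 13.2% to 19.8% elsewhere. As a measure of free RNA, barcodes with fewer than 100 UMIs had a summed level of 1827 CPM with saline, 2234 with live allogeneic, 1456 with live isogeneic and 1564 with apoptotic isogeneic cells. The apoptotic allogeneic file lists 2491 barcodes and none with fewer than 100 UMIs. Erythroid-like cells, the class with the lowest level, had a mean of 0.816 thinned UMIs of the 9 genes in the live allogeneic library, against 3 in cDC2-like cells.

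**Figure D5:**
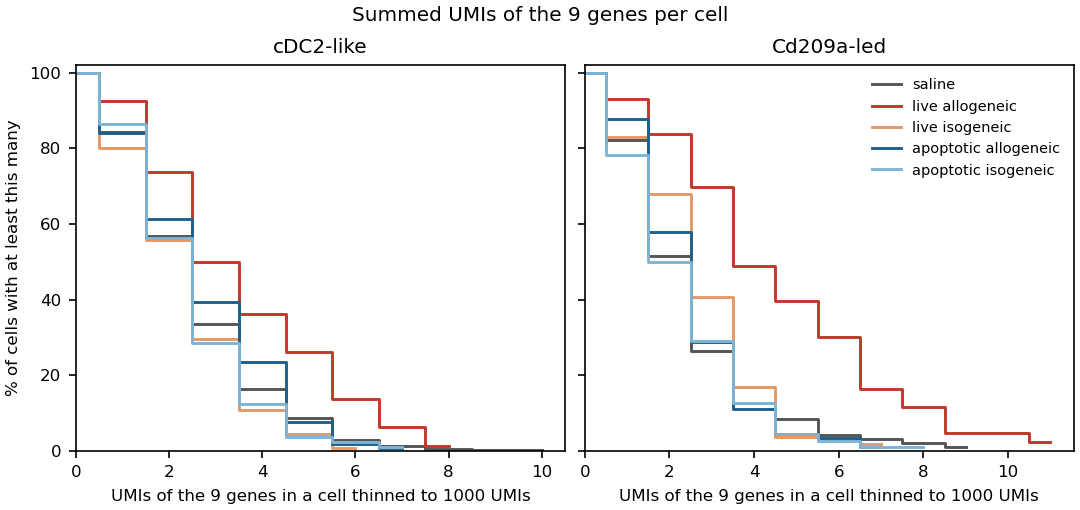
Share of cells (percent) with at least a given number of UMIs of the 9 genes after thinning each cell to 1000 UMIs, in cDC2-like cells and the Cd209a-led cluster. Lines are libraries. The live allogeneic line runs above the others over most of the range, with 40 of 80 and 69.8% of cells at 3 UMIs or more.

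Over 67 sums of a class in a library, the 9 genes varied together to different degrees. The Pearson correlation of each gene with the mean of the other 8 was 0.88 for Psme1, 0.86 for Psmb8 and 0.85 for Psme2, but 0.48 for Psmb10 and 0.41 for Tap2. Among pairs, Psmb8 and Psmb9 had 0.85 and Psmb10 and Tap2 0.02. Of 9504 other genes ranked by their correlation with the mean of the 9, Phf11b was the most alike (0.87), followed by Epsti1 (0.80), Phf11a (0.80), Parp8 (0.79) and Tapbpl (0.78). H2-T23 and H2-M3, both class I molecules, were in the first 10. Psmb5 had -0.22. These sums share libraries, depth and cell types, so the values are descriptions.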

How the data were processed

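The deposited count tables hold UMI counts per gene and barcode for each of the 5 libraries, unnormalised. Cell Ranger 4.0 and the mm10 build are named in the submitters' processing notes. Barcodes with at least 1000 UMIs, 500 genes and at most 10% mitochondrial UMIs were kept. Scrublet (in scanpy) marked under 0.5% of cells in 4 libraries and is taken not to have worked there; called cells were left out. Cells were clustered with scanpy 1.11.5 and leidenalg 0.10.2 (2000 variable genes, 30 principal components, 15 neighbours, resolution 1, seed 1) and named from marker lists. Raw counts were summed per class and library, where a class had at least 30 cells and 50000 UMIs. Ratios of CPM have exact conditional Poisson 95% intervals (scipy 1.17.1), and log2 ratios used a pseudocount of 10 CPM. Genes were counted with at least 20 UMIs in the 2 sums. The ratio script was checked on simulated Poisson counts only, which held no variation between libraries or cells. All 9 genes are described, and other genes are named from lists or as the 10 most alike. The members and lists were chosen with earlier results of these data known. All samples were grouped by their labels, and every comparison is between single libraries. Positions come from the GENCODE M21 annotation and sequences from RefSeq GRCm38.p6. Alternatives covered scaling, thinning, the depth and mitochondrial limits, cells with the most UMIs, the clustering (also without the 9 genes and interferon genes), the count minimum and the pseudocount.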

Additional observations from a re-analysis of the deposited data

Results flagged for a closer look

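Tapbp in B cell-like cells differed between the pairs of libraries in direction. The live allogeneic level was 1.19 times (1.06 to 1.34) the live isogeneic level, at 208 against 174.5 CPM. The apoptotic allogeneic level was 0.88 times (0.78 to 0.99) the apoptotic isogeneic level, at 149 against 169 CPM. With 1 library per group, the difference between the pairs was not tested. Of 79 gene and class values that could be looked at in this way, 1 met that description.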

How the results depend on the processing

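No paired analysis was possible because each group is 1 library, and for the same reason no replicate could be left out. Of 44 alternative counts, 43 stayed within 1.5 times the reported count. The exception was the number of genes at least 1.5-fold higher in live allogeneic than in saline cDC2-like cells, which was 3 in place of 6 when each cell was thinned to 1000 UMIs. In the live pair that number was 6 to 8 in cDC2-like cells, and in the apoptotic pair 0, under the alternatives run. Dropping the count minimum could not change the counts it was run on. All 9 genes already passed the minimum in cDC2-like cells, and the count of classes did not use it. Of 243 alternative log2 ratios of single genes in cDC2-like cells, 234 stayed within the counting interval of the reported ratio. The other 9 moved further, all under thinning and 5 of them upward, and the cause was not tested. Of the 243, 0 changed sign after being called. Alternatives that merged the Cd209a-led cluster with cDC2-like cells, left out the Ifit3-led B cell-like cluster or used saline as the control were chosen after seeing the data. The smaller cDC2-like cluster on its own was not run, since it holds 9 live allogeneic cells. Depth limits Nlrc5 and Tap2 most, and no value separates an effect of the infusion from a difference between single libraries.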
